A study of Mus musculus with 6 samples.

Results

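The Rab GTPases and the Rab11 family-interacting proteins, 64 protein-coding genes of the 54532 genes in the count table, were examined in N9 microglia with and without LPS. Members were taken by symbol, as every protein-coding gene named Rab with a number and at most 1 further letter (59 genes) and every gene named Rab11fip with a number (5 genes). N9 is a mouse microglial line, immortalized and grown in culture, and lipopolysaccharide (LPS) is a glycolipid of gram-negative bacteria sensed by the receptor TLR4. RNA-seq was performed on 3 libraries from N9 cells given LPS at 1 µg/ml for 6 h and on 3 libraries from untreated N9 cells, and the genes of vesicle traffic were compared between these groups. The labels do not say whether the libraries of a group came from separate cultures, so P-values measure the spread between these samples, which may be technical.

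Rab proteins are small GTPases that mark the membranes of the cell and direct vesicle traffic between them. A guanine nucleotide exchange factor (GEF) loads a Rab with GTP, the active Rab recruits effector proteins such as tethers and motor adaptors, and a GTPase-activating protein (GAP) switches it off again. In macrophages and microglia these proteins carry phagosomes towards lysosomes, release cytokines and granules, and move TLR4 itself: Rab10 brings the receptor to the plasma membrane, Rab11a with Rab11fip2 brings it to phagosomes, and Rab7b directs it to lysosomes. Rab11 family-interacting proteins are effectors that bind active Rab11 on recycling endosomes.

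A feature of the family that its symbols do not use is the end of the protein, where prenyl groups attached to cysteines anchor a Rab in the membrane. In coding sequences of GENCODE release M21 on GRCm38, 59 of 59 Rab genes had at least 1 cysteine codon among the last 5 codons, and 50 had 2 or more (84.7%). Of all 21526 protein-coding genes, 12.6% had at least 1 and 1.93% had 2 or more, and of the 5 Rab11fip genes 0 had any. The last 30 coding bases before the stop codon are shown for the members with the largest changes and for the neighbours they are compared with, with cysteine codons among the last 5 in capitals.
Rab15: ccagcaaactcttcaaagaccTGCtggTGC
Rab20: cccaaacagactagatccgggTGTTGTgcc
Rab27a: gaggagaaggagaaggggttgTGTggcTGT
Rab3d: ccacccccacagccgagcagcTGCagcTGT
Rab12: cctcctcccagaccacacgtccgaTGCTGT
Rab10: ggcgtgacgggctggaagagcaagTGCTGC
Rab7: gccaaggcctccgcagaaagcTGCagtTGT
Rab11a: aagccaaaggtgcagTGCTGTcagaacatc
Rab11b: cccaacaagctgcagTGCTGCcagagcctg
Rab8b: aagaccagtttcttccgcTGTtctctgctt
Rab8a: aggaccagcttcttccggTGCagtctcctg
Rab40c: aactgctctcggagcaacTGCaagatctcc
Rab11fip1: gcgcagatgggcaagaaggccggaaagatg
The sequences end in 2 adjacent cysteine codons (Rab10, Rab12), in cysteine codons 1 codon apart (Rab15, Rab27a, Rab3d, Rab7), or have them further from the end (Rab11a, Rab11b, Rab20). Rab8a, Rab8b and Rab40c have 1 cysteine codon among the last 5, and Rab11fip1, an effector that binds membranes in another way, has none there.

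Total counts lay between 16363767 and 17956772 per library. Of 8 macrophage and microglia markers, 7 had at least 10 counts in every library, while Aif1 had between 4 and 9. Of 6 markers of microglia in brain, P2ry12 had between 3 and 6 counts, Sall1 between 0 and 1 and Gpr34 between 0 and 5. Control replicates 2 and 3 stood apart in 12 hepatocyte markers, with summed levels of 15.4 and 25.9 CPM (counts scaled to library size) against 0.175 to 0.731 CPM in the other 4 libraries, and 8 epithelial markers summed to 5.1 CPM in control replicate 2 and 5.48 CPM in LPS replicate 3. A set of 5 fibroblast markers summed to 11.2 CPM in control replicate 1, 7.15 CPM in control replicate 3 and 7.73 CPM in LPS replicate 1. The part of these transcripts in the results was not tested beyond the fits without control replicates 2 and 3 given below.

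Of the 64 members, 45 had enough counts to be tested with the quasi-likelihood test of edgeR, with adjustment over all 12296 genes tested. The 19 untested members include 12 with 3 counts or fewer in every library. Among these, Rab9b, Rab26 and Rab38, the last a melanosome Rab, had 0 counts in all 6 libraries, where 3 counts, the most that a count of 0 allows, correspond to 0.161 to 0.19 CPM. The other such genes were Rab3b, Rab3c, Rab17, Rab25, Rab27b, Rab33a, Rab36, Rab39b and Rab42. The remaining 7 untested genes, with highest counts between 4 and 16, were Rab4b, Rab6b, Rab19, Rab37, Rab40b, Rab44 and Rab11fip4.

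Levels were compared between members per length, as CPM per kilobase of gene length (CPM/kb). The highest levels in control cells were those of Rab1b, which acts between the endoplasmic reticulum and the Golgi, at 148 ± 5.93 CPM/kb (SD, n = 3), and of Rab7, the Rab of late endosomes and lysosomes, at 124 ± 2.29 CPM/kb. Next came Rab5c of early endosomes at 91.0 ± 6.61 CPM/kb, and Rab1a and Rab10 at 82.05 ± 2.53 and 81.35 ± 2.21 CPM/kb, whose levels did not differ beyond their spread. Together Rab1b, Rab7 and Rab5c held between 31.6% and 32.8% of the summed level of all members in each library. The lowest levels among tested members were those of Rab15 at 0.233 ± 0.102 CPM/kb and of Rab30, a Golgi Rab, at 0.0785 CPM/kb.

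The summed level of the family was about the same in both groups. In the order of replicates 1, 2 and 3, which is also the order of all values below, it was 1156, 1119 and 1127 CPM/kb in control cells and 1168, 1146 and 1130 CPM/kb with LPS. The groups overlapped. Members of the endoplasmic reticulum and Golgi held between 34% and 35.2% of this sum in every library, and the groups overlapped. Members of secretion and the plasma membrane held 13.5%, 13.7% and 13.9% in control cells and 14.9%, 14.8% and 14.9% with LPS. Early endosome members held 19.7%, 19.4% and 19.6% in control cells and 19.1%, 19.2% and 19.2% with LPS, and the less studied members 2.86%, 2.81% and 2.79% and 2.09%, 2.07% and 2.23%. Rab11 effectors held 1.29%, 1.31% and 1.35% in control cells and 1.4%, 1.6% and 1.6% with LPS. In these 4 roles the groups did not overlap, and no test was run on the shares. Single genes weigh in such shares. Rab11fip1 rose from a mean of 1.66 to 5.26 CPM/kb, while the means of Rab11fip2, Rab11fip3, Rab11fip4 and Rab11fip5 were lower with LPS. Rab40c, the highest of the less studied members, fell from 21.8 to 15.7 CPM/kb. The plot of levels per length shows that Rab15 and Rab11fip1 lay in the lower part of the range in control cells.

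**Figure D1:**
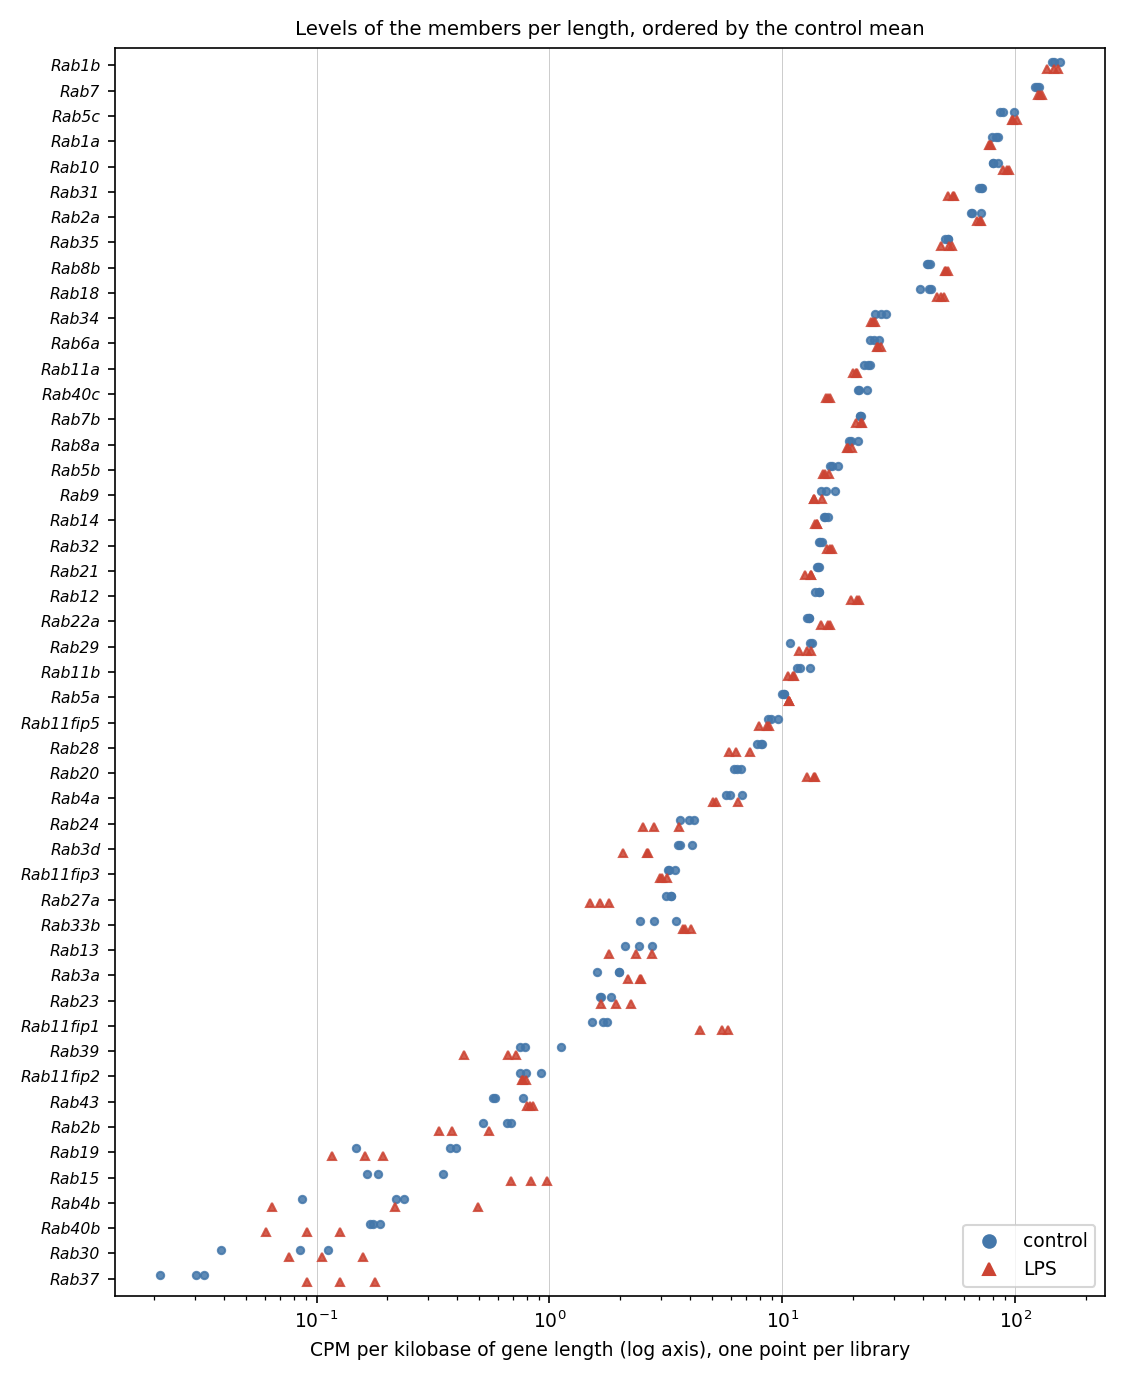
Level of each member in each library, as CPM per kilobase of gene length on a log axis, for the 49 members with a mean of at least 0.1 CPM/kb in either group, ordered by the control mean. Circles are the 3 control libraries and triangles the 3 LPS libraries. Rab1b lies at the top near 148 CPM/kb, and among the 45 tested members the log2 distance between the groups is widest for Rab15 and Rab11fip1.

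After LPS, 16 of the 45 tested members changed (FDR-adjusted P-value < 0.05), 9 up-regulated and 7 down-regulated. This was 35.6% of the members tested, and 34.3% of all genes tested changed. By direction, 20% of the members were up-regulated against 18.7% of all genes, and 15.6% were down-regulated against 15.7% of all genes, so the shares were near the background in both directions. With the further threshold of an absolute log2 fold change (log2FC) over 1.5, 2 members were DEG, Rab15 and Rab11fip1, both up-regulated, which was 4.44% against 2.65% of all genes. Of all genes, 2.4% were up-regulated DEG and 0.252% down-regulated DEG. The libraries of the groups did not overlap for 27 of the 45 members (60%) and for 45.3% of all genes. The median log2FC was -0.03 over the members and 0.00 over all genes, and the median absolute log2FC was 0.157 and 0.17.

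Of the 16 changed members, 6 had an absolute log2FC of at least 0.5. These were Rab15, Rab11fip1, Rab20 and Rab12, up-regulated, and Rab27a and Rab3d, down-regulated. All 6 kept their call in each of the 6 fits that left out 1 library and in the fit with control replicate 1 as the lone control library. In that last fit the lone library is assumed to vary as the LPS libraries do, and 2832 of 12940 genes had a call in place of 4221 of 12296. Of the 16 members, 11 kept their call, 7 up-regulated and 4 down-regulated. The 5 that lost it were Rab11a, Rab14, Rab18, Rab28 and Rab33b.

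**Figure D2:**
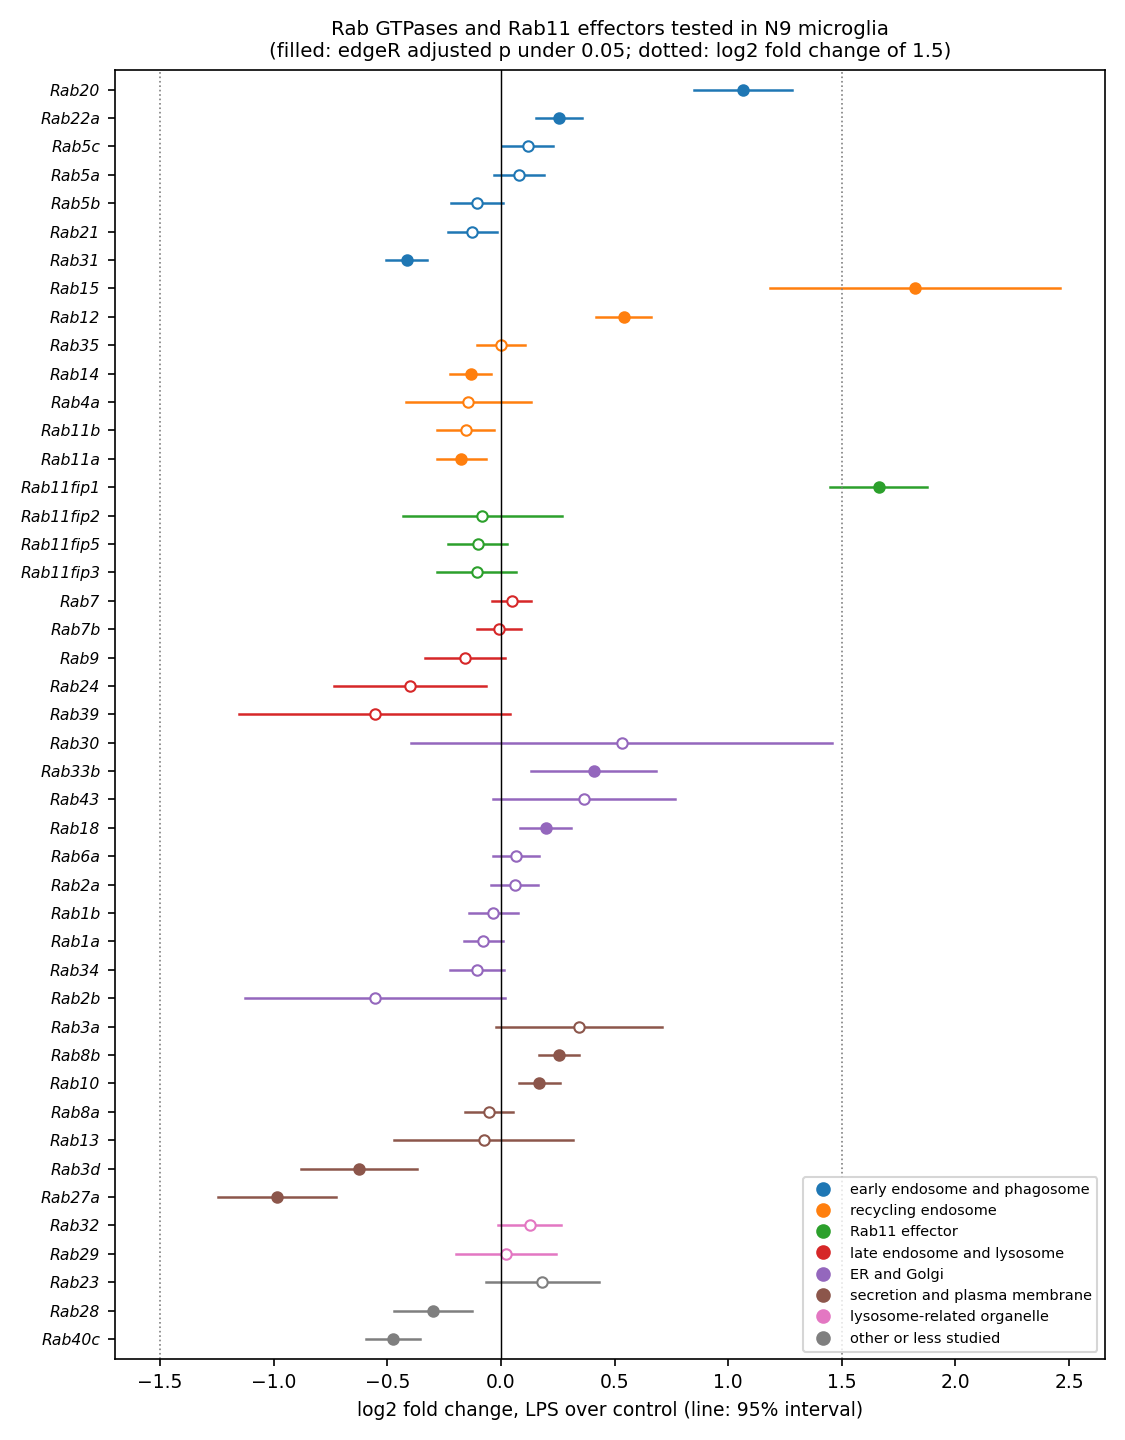
The log2FC of the 45 tested members, LPS over control, with the 95% interval as a line, grouped and coloured by the role of the protein. Filled points passed the test and dotted lines mark an absolute log2FC of 1.5. Rab15 at 1.82 and Rab11fip1 at 1.66 lie past the upper dotted line, and the lowest point is Rab27a at -0.99.

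Among the recycling endosome Rabs, Rab15, which regulates the return of receptors through endosomes, rose from a low level. It had 13, 15 and 30 counts in control cells and 50, 63 and 74 counts with LPS, or 1.07 ± 0.470 CPM and 3.84 ± 0.668 CPM (SD, n = 3). The groups did not overlap, and control replicate 3 was the highest of the controls. The log2FC was 1.82 with a standard error (SE) of 0.298 and an edgeR adjusted P-value of 2.26e-04. Without control replicates 2 and 3 the log2FC was 2.33. Rab15 lies on the minus strand at chr12:76797960-76822908 (mm10), where its span overlaps Fntb on the opposite strand without a shared exonic base, and Fntb had a log2FC of 0.06 (edgeR adjusted P-value 0.657).

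Rab12, which acts in the degradation of the transferrin receptor, also rose. Its levels were 43.5, 43.5 and 41.9 CPM in control cells and 63.6, 64.4 and 59.6 CPM with LPS. The groups lay apart by far more than their spread, with a log2FC of 0.54 (SE 0.0567, edgeR adjusted P-value 2.71e-06). Rab11a, the main Rab of recycling endosomes, fell slightly, from 71.2, 67.1 and 69.9 CPM to 62.5, 61.7 and 60.3 CPM. Its log2FC was -0.17 (SE 0.0504, edgeR adjusted P-value 0.015), and the adjusted P-value was 0.0579 without LPS replicate 3.

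Rab14, which acts between early endosomes and the Golgi, had a log2FC of -0.13 (edgeR adjusted P-value 0.0244). It lost its call in 4 of the 6 fits without 1 library, with adjusted P-values between 0.0148 and 0.0826 over the 6. Rab11b, the close paralog of Rab11a, had a log2FC of -0.15 (SE 0.0582, edgeR adjusted P-value 0.0534) and did not pass the test. Its value lay close to the threshold. Rab11b had a call in several alternative edgeR fits, among them those with RLE size factors and with robust dispersion, and none in DESeq2. Rab35 and Rab4a, both of fast recycling, had log2FC values of 0.00 and -0.14 and did not pass. In all, 4 of the 7 tested recycling endosome Rabs changed (57.1%, against 34.3% of all genes), 2 in each direction (28.6% each, against 18.7% up-regulated and 15.7% down-regulated of all genes).

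Of the Rab11 effectors, Rab11fip1, also known as Rab-coupling protein, rose and the other tested members did not pass the test. Rab11fip1 had 19.2, 18.3 and 16.5 CPM in control cells and 48.0, 62.9 and 59.5 CPM with LPS. The lowest LPS library was 28.8 CPM above the highest control library. The log2FC was 1.66 (SE 0.0993, edgeR adjusted P-value 4.88e-09), between 1.58 and 1.77 when 1 library was left out. Rab11fip2, the partner of Rab11a in TLR4 traffic, had 96, 80 and 90 counts in control cells and 76, 76 and 77 counts with LPS, a log2FC of -0.08 with a 95% interval from -0.43 to 0.27. Rab11fip3 and Rab11fip5 had log2FC values of -0.11 and -0.10. In the count table Rab11fip4 had 12, 10 and 6 counts in control cells and 3, 7 and 6 with LPS and was not tested.

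Both DEG calls rest on estimates close to the threshold. In glmTreat of edgeR, which tests whether the absolute log2FC exceeds 1.5, 0 of the 45 members passed, and 183 of 12296 genes (1.49%) did, so that a count of 0 lies near the background. Rab11fip1 had an unadjusted P-value of 0.018 and Rab15 of 0.0519, and 1 member had an unadjusted P-value under 0.05. DESeq2 with the same thresholds gave 3 DEG among the 51 members it tested, Rab15, Rab11fip1 and Rab37, and 2.57% of all genes were DEG there. Rab37 was too low for the filter of edgeR, and its counts stand with the Rabs of secretion.

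**Figure D3:**
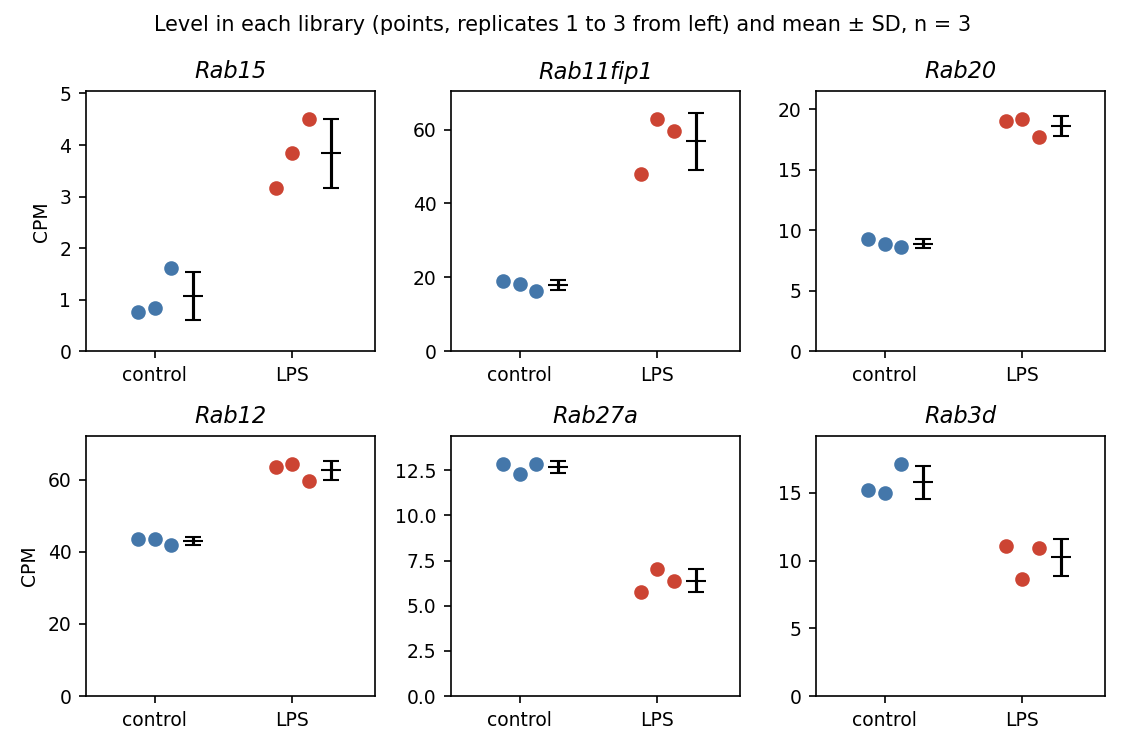
Levels in CPM in each library for the 6 changed members with an absolute log2FC of at least 0.5, with the mean and SD of each group (n = 3) beside the points. Control libraries are blue and LPS libraries red. In all 6 panels the groups do not overlap, with LPS higher for Rab15, Rab11fip1, Rab20 and Rab12 and lower for Rab27a and Rab3d.

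Of the early endosome and phagosome Rabs, all 7 were tested and 3 changed (42.9%, against 34.3% of all genes). Rab20, which promotes phagosome maturation in macrophages, rose from 9.28, 8.84 and 8.61 CPM in control cells to 19.0, 19.2 and 17.7 CPM with LPS. The libraries of each group lay close together and the groups far apart, and the log2FC was 1.07 (SE 0.1003, edgeR adjusted P-value 8.61e-07). The exons of Rab20 share 25.6% of their bases with E230013L22Rik on the opposite strand, which had a mean of 6.67 counts. Whether strand was used in counting is not given in the sources used here. Rab22a, which acts on early endosomes and recycling tubules, rose with a log2FC of 0.26 (edgeR adjusted P-value 6.17e-04).

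Rab31, which sorts cargo at the Golgi and early endosomes and also takes part in phagocytosis, fell. It had 266, 271 and 274 CPM in control cells and 196, 207 and 205 CPM with LPS. The groups lay apart, with a log2FC of -0.41 (SE 0.0423, edgeR adjusted P-value 2.11e-06), and Rab31 was the sixth highest of the members per length in control cells. The Rab5 paralogs Rab5a, Rab5b and Rab5c and also Rab21, a Rab of integrin traffic, did not pass the test, with log2FC values between -0.13 for Rab21 and 0.12 for Rab5c.

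Of the late endosome and lysosome Rabs, 0 of 5 tested passed the test in edgeR (against 34.3% of all genes) and 0 in DESeq2, and 1, Rab24, had an unadjusted P-value under 0.05. In alternative edgeR fits Rab24 had a call with no filter on low counts, with a replicate term and without LPS replicate 2. Rab7 had 5619, 5726 and 5881 counts in control cells and 5269, 5361 and 5590 with LPS, and its log2FC of 0.05 had a 95% interval from -0.04 to 0.13. Rab7b, the Rab that directs TLR4 to lysosomes, had 99.2, 100.5 and 99.4 CPM in control cells and 95.7, 101.1 and 100.7 CPM with LPS. The groups overlapped, and the 95% interval of its log2FC reached from -0.10 to 0.09, so that a change larger than this was not seen. Rab9, which returns receptors from late endosomes to the Golgi, had a log2FC of -0.16, Rab39 of -0.55 and Rab24 of -0.40 (edgeR adjusted P-value 0.0622). Of the exonic bases of Rab24, 62.4% are shared with Prelid1 on the opposite strand, a gene with a mean of 5324 counts against 119 for Rab24.

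Among the Rabs of secretion and the plasma membrane, 4 of 7 tested members changed (57.1%, against 34.3% of all genes), 2 in each direction. Rab27a, which docks lysosome-related organelles and exosome-bearing vesicles at the plasma membrane, had 220.0, 217 and 239 counts in control cells and 91, 115 and 105 counts with LPS. The highest LPS library had 102 counts fewer than the lowest control library, and the log2FC was -0.99 (SE 0.121, edgeR adjusted P-value 1.44e-05). Its paralog Rab27b had 1 count in control replicate 2 and 0 in the other 5 libraries. Rab3d, a Rab of secretory granules, had 260.0, 264 and 319 counts in control cells and 175, 142 and 180.0 counts with LPS. The groups did not overlap, and the log2FC was -0.62 (SE 0.119, edgeR adjusted P-value 8.24e-04).

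Rab10 and Rab8b, both of traffic to the plasma membrane, rose slightly. Rab10 had 282, 280.4 and 295 CPM in control cells and 329, 324 and 311 CPM with LPS, with a log2FC of 0.17 (SE 0.0421, edgeR adjusted P-value 0.00591). Its exons share 4.07% of their bases with the antisense gene Rab10os, which had between 298 and 416 counts. Rab8b had 200.5 ± 2.64 CPM in control cells and 239.2 ± 2.88 CPM with LPS (SD, n = 3), with a log2FC of 0.25 (SE 0.041, edgeR adjusted P-value 1.94e-04). Rab8a, Rab13 of tight junctions and Rab3a of synaptic vesicles did not pass the test, with log2FC values of -0.05, -0.08 and 0.34.

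Rab37, a Rab of secretory granules in immune cells, was too low for the filter. It had 3, 2 and 3 counts in control cells and 15, 11 and 8 counts with LPS. Each LPS library had more counts than any control library. The sums were 8 and 34 counts, and their ratio scaled to library size was 4.67, with an exact binomial 95% interval from 2.12 to 11.7 that covers counting error only. Its adjusted P-value was 0.0182 in edgeR with no filter, 0.0207 with no filter and robust dispersion, and 0.046 in DESeq2. In the other fits that tested it, which left out libraries, Rab37 passed the filter only through its LPS libraries, so their calls are not used here, and with control replicate 1 as the lone control library the adjusted P-value was 0.188. Its span overlaps Cd300lf on the opposite strand, without a shared exonic base. Cd300lf had a mean of 736 counts and rose itself, with a log2FC of 1.64 (edgeR adjusted P-value 2.16e-10). The part of reads from Cd300lf in the counts of Rab37 was not tested.

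Of the endoplasmic reticulum and Golgi Rabs, 2 of 10 tested members changed (20%, against 34.3% of all genes), both up-regulated. Rab18, which acts at the endoplasmic reticulum and lipid droplets, had a log2FC of 0.20 (edgeR adjusted P-value 0.0086), and 0.14 with an adjusted P-value of 0.0552 without control replicate 2. Rab33b, a Golgi and autophagy Rab, had 9.98, 8.67 and 12.3 CPM in control cells and 14.4, 13.3 and 13.5 CPM with LPS. Its log2FC was 0.41 (edgeR adjusted P-value 0.0233), and it lost its call in DESeq2 (adjusted P-value 0.0579) and in 3 of the 6 fits without 1 library. The main Rabs of this route, Rab1a, Rab1b, Rab2a and Rab6a, and also Rab34, had log2FC values between -0.11 and 0.06 and did not pass. Rab2b, Rab30 and Rab43, all under 1 CPM/kb, had log2FC values of -0.55, 0.53 and 0.37 and did not pass. Of the exonic bases of Rab43, 75.4% are shared with Gm45140 on the same strand. Of those of Rab2b, 59.3% are shared with Gm43766 on the opposite strand. This limits what the levels of Rab43 and Rab2b can show.

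Of the Rabs of lysosome-related organelles, 0 of 2 tested members passed in edgeR (against 34.3% of all genes) and 0 in DESeq2, and 0 had an unadjusted P-value under 0.05. Rab32, which acts in host defence against intracellular bacteria, had a log2FC of 0.13 and Rab29 of 0.02. Of the less studied Rabs, Rab40c, which has a SOCS box and recruits a ubiquitin ligase, fell from 71.2, 65.8 and 65.6 CPM in control cells to 49.4, 48.5 and 47.7 CPM with LPS. Its groups lay apart, with a log2FC of -0.48 (SE 0.0553, edgeR adjusted P-value 7.94e-06). Rab28 had a log2FC of -0.30 (edgeR adjusted P-value 0.00907), with an adjusted P-value of 0.0532 without LPS replicate 2, and Rab23, an inhibitor of Hedgehog signalling, had 0.18 and did not pass. Over all roles, 23 of the 29 members that did not pass had a 95% interval of the log2FC within 0.5 of 0.

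Closely related paralogs were also compared by their shares of the summed level per length in 10 groups. In the Rab3 group, Rab3d held 68.9%, 63.9% and 67.3% in control cells and 51.7%, 48.5% and 51.5% with LPS, and Rab3a held most of the rest. The groups did not overlap, and the mean share of Rab3d was 16.1 percentage points lower with LPS. Rab8b held 67.0%, 68.2% and 68.4% of the Rab8 level in control cells and 71.9%, 72.4% and 72.6% with LPS, 4.46 percentage points higher. Rab5c held 77.3 ± 1.5% and 79.1 ± 0.0957% of the Rab5 level (SD, n = 3), and Rab2a held 99.1 ± 0.126% and 99.4 ± 0.15% of the Rab2 level, also without overlap.

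For these 4 groups the exact two-sided permutation test gave P = 0.1, the smallest that 3 libraries against 3 can give, and 0.225 after adjustment over the 9 groups with a test, so that no share could pass the threshold. Rab11a held 65.5 ± 2.26% of the Rab11 level in control cells and 65.2 ± 0.391% with LPS, and Rab1b held 64.4 ± 0.701% and 65.1 ± 1.04% of the Rab1 level, and in both the groups overlapped. Rab27a, Rab4a, Rab6a and Rab32 each held at least 91.0% of their group in every library. Reads shared between genes can blur such shares. No paralog compared here shared a 50-base run of its transcripts with another paralog of its own group. With any other gene, 48 of the 64 members shared under 5% of these runs. Of the paralogs compared, those above 5% shared these runs with genes outside their own group. They were Rab8b with 5.46%, Rab3b with 7.7%, Rab5b with 9.8%, Rab11b with 13.6%, Rab6a with 19.0%, Rab2b with 57.0% and Rab4b with 58.1%. Rab4b also shares 65.0% of its exonic bases with Gm21983 on the same strand, which limits what the share of Rab4a can show.

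**Figure D4:**
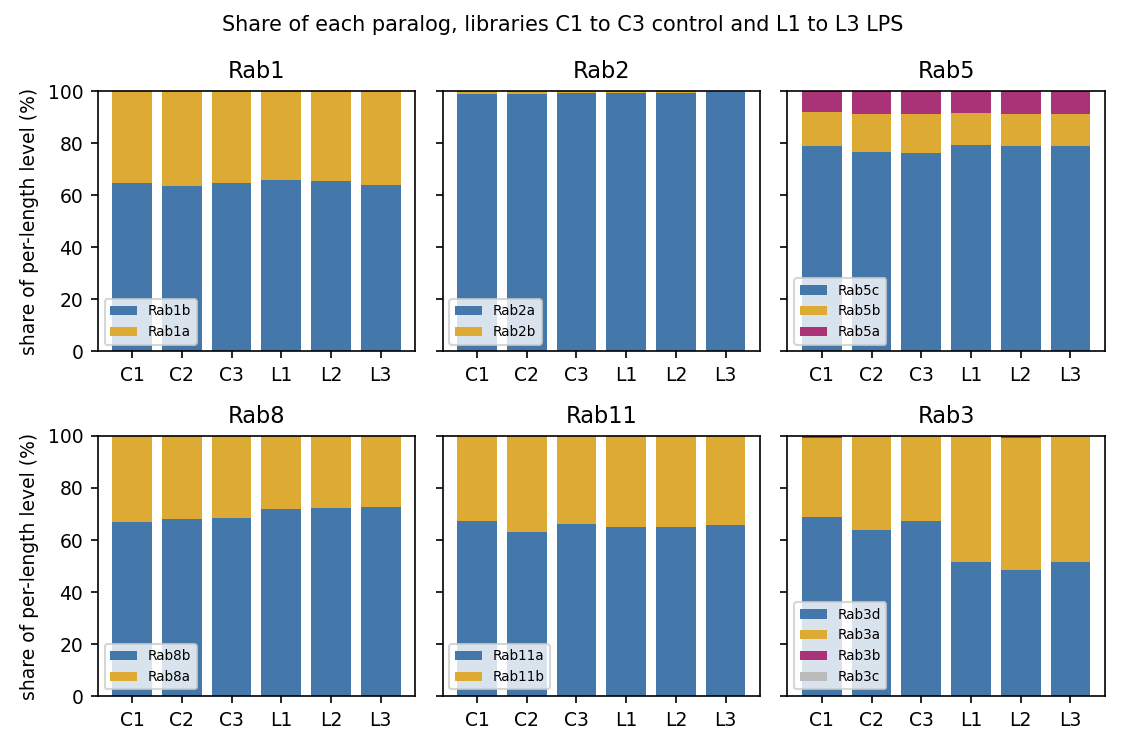
Share of each paralog in the summed CPM per kilobase of its group, in percent, in control replicates 1 to 3 (C1 to C3) and LPS replicates 1 to 3 (L1 to L3). The share of Rab3d lies between 63.9% and 68.9% in control cells and between 48.5% and 51.7% with LPS, while the Rab1 and Rab11 shares overlap between the groups.

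Promoter windows of 300 bases, from 250 before to 50 after a start site, were taken from RefSeq (GRCm38.p6) for the members that matched, 51 of 64 with 65 windows. Of the 2 DEG, Rab11fip1 did not match. Rab15 has 4 windows, of which 1 holds a match to the motifs searched. Shown are this window, at an inner start, the window at the outermost start of Rab15, and the window at the outermost start of Rab27a, which fell most. Both strands were searched for 1 consensus each of NF-kappa B and of the interferon-stimulated response element, both 10 letters long, and for TGANTCA (AP-1), TTGCNNAA (C/EBP) and TCACGTGA (the E-box of TFEB), and matches are in capitals.
Rab15, outermost start, chr12:76822475-76822774, minus strand: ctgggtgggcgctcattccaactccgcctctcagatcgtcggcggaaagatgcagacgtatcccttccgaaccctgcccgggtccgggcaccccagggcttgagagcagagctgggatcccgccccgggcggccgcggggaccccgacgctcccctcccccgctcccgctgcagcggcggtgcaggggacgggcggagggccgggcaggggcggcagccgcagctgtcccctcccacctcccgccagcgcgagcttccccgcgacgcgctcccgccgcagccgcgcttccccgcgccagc
Rab15, inner start, chr12:76818325-76818624, minus strand: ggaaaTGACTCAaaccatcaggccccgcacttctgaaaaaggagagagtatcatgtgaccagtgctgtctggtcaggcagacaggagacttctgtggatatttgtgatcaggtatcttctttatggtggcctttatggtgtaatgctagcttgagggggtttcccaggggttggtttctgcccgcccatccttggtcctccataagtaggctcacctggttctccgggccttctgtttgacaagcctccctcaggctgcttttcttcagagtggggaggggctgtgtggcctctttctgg
Rab27a, outermost start, chr9:73044560-73044859, plus strand: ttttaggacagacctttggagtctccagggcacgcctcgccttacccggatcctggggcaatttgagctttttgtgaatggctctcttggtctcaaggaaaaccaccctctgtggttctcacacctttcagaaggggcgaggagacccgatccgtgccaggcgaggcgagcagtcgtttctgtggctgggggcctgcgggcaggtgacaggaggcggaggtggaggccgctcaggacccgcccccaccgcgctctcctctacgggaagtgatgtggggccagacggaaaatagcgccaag
The AP-1 letters begin 245 bases before the inner Rab15 start, and the windows of Rab27a hold no match to the 5 motifs.

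Among the 65 windows, matches were few. The NF-kappa B letters were in 0 windows of members and in 0.411% of all 32851 windows, and the interferon-stimulated response element letters were in 1.54% and 3.44%. The AP-1 letters were in 4.62% of the windows of members (Rab15, Rab34 and Rab39b) and in 7.81% of all windows, and the C/EBP letters in 7.69% and 10.8%. The E-box letters were in 4.62% (Rab5a, Rab21 and Rab24) and in 0.974% of all windows, and none of these 3 genes passed the test. No match says only that these letters are not in this window. A window without them can hold another form of the same site, for NF-kappa B as for the others.

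Genes that act on or with Rab proteins, a list of 133, gave 116 tested genes. Of these, 49 changed, 20 up-regulated and 29 down-regulated, which is 42.2% against the 34.3% of all genes. In edgeR 0 were DEG, where 2.65% of all genes were, in DESeq2 also 0, where 2.57% were, and 0 had an absolute log2FC over 1.5 with an unadjusted P-value under 0.05. Over all genes, 18.7% rose and 15.7% fell. Of the 37 GEFs, 5 rose (13.5%) and 13 fell (35.1%). Of the 38 GAPs tested, 5 rose (13.2%) and 8 fell (21.1%). Of the 35 other effectors tested, 10 rose (28.6%) and 6 fell (17.1%), and of the 6 genes of prenylation and of GDI, which extracts Rabs from membranes, 0 rose and 2 fell, Gdi2 and Chml. The median log2FC was -0.07 for GEFs and 0.06 for effectors. With control replicate 1 as the lone control library, 14 of the listed genes rose and 17 fell, in a fit that called 2832 of 12940 genes in place of 4221 of 12296.

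The largest falls were in GEFs. Dennd4a, a GEF of Rab10, had 4710, 5635 and 5547 counts in control cells and 1849, 1930 and 1956 with LPS, with a log2FC of -1.33 (SE 0.054, edgeR adjusted P-value 5.16e-11), while Rab10 itself rose slightly. Rab3il1, a GEF of Rab8 that also binds Rab3, had 465, 464 and 477 counts in control cells and 172, 214 and 168 with LPS. In both genes the groups were far apart, and the log2FC of Rab3il1 was -1.21 (edgeR adjusted P-value 2.38e-07). Dennd3, the GEF of Rab12, had 322, 310 and 376 counts in control cells and 161, 176 and 184 with LPS (log2FC -0.82, edgeR adjusted P-value 1.51e-05), whereas Rab12 rose. Rin2, a GEF of Rab5, and Appl2, an effector of Rab5, fell with log2FC values of -0.61 and -0.70.

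The largest rises were in effectors and a GAP-like gene. Rilpl2, which binds Rab8 and Rab10 after their phosphorylation by LRRK2, had 2302, 2222 and 2333 counts in control cells and 4098, 4398 and 4123 with LPS. Its log2FC was 1.01 (SE 0.0469, edgeR adjusted P-value 2.63e-10). Tbc1d9, which has the TBC domain of Rab GAPs, had 788, 923 and 914 counts in control cells and 1320.0, 1470.0 and 1536 with LPS (log2FC 0.86, edgeR adjusted P-value 3.56e-08). The groups of both genes lay apart. Micall1 and Micall2, effectors of Rab8 and Rab13 on recycling tubules, rose with log2FC values of 0.76 and 0.49, and Optn, an autophagy receptor that binds Rab8, with 0.58.

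Most listed effectors of Rab27 were low in both groups. Of 9 (Sytl1 to Sytl5, Unc13d, Mlph, Myrip and Exph5), 0 had enough counts to be tested, the highest count in any library was 10, and 6 had 3 counts or fewer in every library. The highest count among these 9 was in Exph5, in LPS replicate 3. Of the effectors that bind both Rab3 and Rab27, Rph3al had between 1 and 7 counts and was not tested. Rph3a had 32, 35 and 38 counts in control cells and 55, 48 and 46 with LPS, without overlap, and rose with a log2FC of 0.64 (SE 0.227, edgeR adjusted P-value 0.0414). It had a call in 5 of 16 alternative fits and in none without 1 library, with adjusted P-values between 0.0337 and 0.185 over the 16, and 0.16 in DESeq2.

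**Figure D5:**
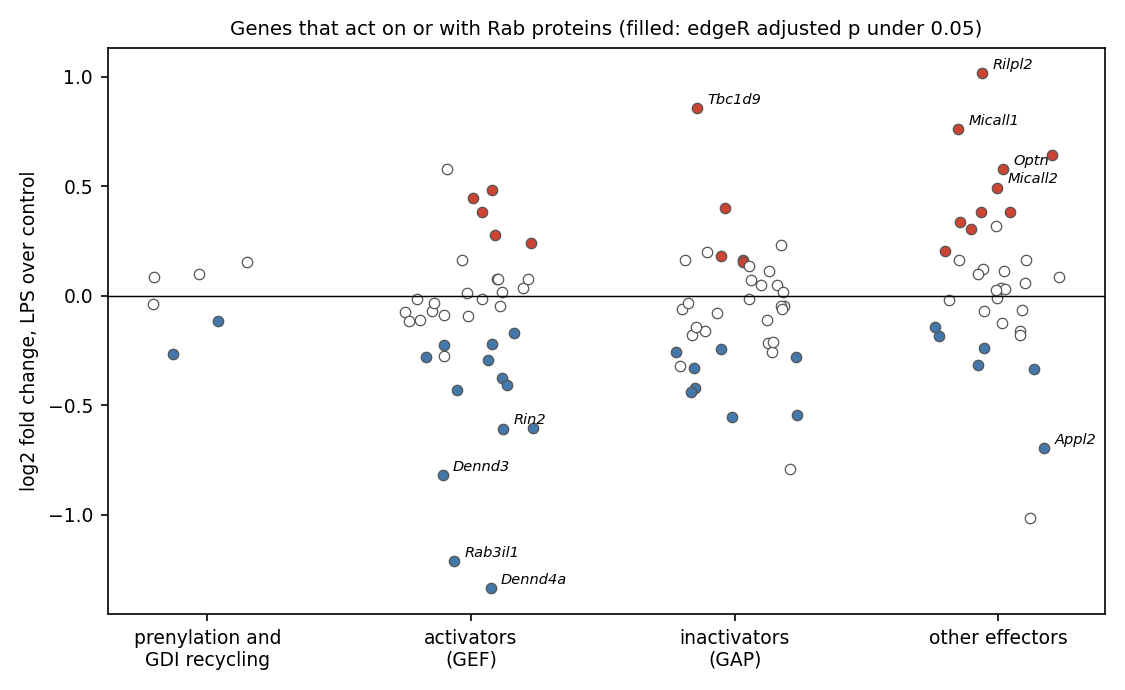
The log2FC, LPS over control, of the 116 tested genes that act on or with Rab proteins, in 4 lists, with points spread sideways only to be seen. Filled points passed the test, red for genes that rose and blue for genes that fell, and the 10 genes described are named. The lowest points are the GEFs Dennd4a at -1.33 and Rab3il1 at -1.21, and the highest is the effector Rilpl2 at 1.01.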

How the data were processed

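RNA of N9 cells was sequenced by Novogene, with 3 control and 3 LPS libraries grouped by their labels. The authors deposited counts per gene without normalization. Per the submitters' processing notes, featureCounts 1.5.0-p3 and the build mm10 were used. The aligner, the use of strand and the annotation release are not given in the sources used here. A second table, with the fold changes and p-values of the authors' own DESeq2 comparison, was not used, nor were its 18 columns of values per sample and 2 of group means.

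From the deposited counts, edgeR 4.0.16 under R 4.3.3 tested LPS against control (TMM, filterByExpr by group, prior count of 0.125, no replicate term), with Benjamini-Hochberg adjustment over 12296 genes. CPM uses TMM library sizes, and 3 counts equal 0.161 to 0.19 CPM. Counts are of reads, not of molecules, so count limits and intervals cover counting error only. Replicates differed by more than sampling noise (chi-square per gene 3.56 to 7.74). Shares were tested with scipy 1.17.1 under Python 3.11.15, and figures drawn with matplotlib 3.10.9. The fits were tested on simulated data.

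The members and lists were chosen with earlier results of these data known. Full values are given for members that are DEG or changed with an absolute log2FC of at least 0.5, and for those of TLR4 traffic. Of listed regulators, the 5 largest rises and falls with a mean of at least 50 counts are named. Other genes were chosen after their values were seen, among them Rab37, Rab31, Rab40c and the Rab27 effectors. Positions are those of the count table, and 61 of 64 members have the same position in GENCODE M21. Alternatives were DESeq2 1.42.0, RLE size factors, no filter, a filter at a mean of 10 counts, a prior count of 2, robust dispersion, glmTreat, protein-coding genes alone, a replicate block, the loss of each library in turn, control replicate 1 alone, and shares without length. A fit with neither filter nor the usual dispersion (robust instead) was chosen after seeing the data.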

Additional observations from a re-analysis of the deposited data

How the results depend on the processing

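None of the 26 changed genes named by rule (16 members and 10 regulators) reversed its direction in any fit. They kept their call in 400 of 416 fits over 16 settings, and the other 16 all concern Rab11a, Rab14, Rab18, Rab28 and Rab33b. These settings leave out glmTreat, in which 0 of the 45 members passed. Rph3a, named outside the rule, kept its call in 5 of 16 fits, and Gdi2, Chml and Cd300lf were not followed over the alternatives. The members with a call numbered 14 to 19 when 1 library was left out, in fits that called between 3379 of 12495 and 4081 of 12538 genes, so that the counts over all genes moved as well. The count of DEG among the members was 0 instead of 2 with glmTreat, which tests against the threshold itself. With control replicate 1 as the lone control library, 4 members instead of 7 and 17 instead of 29 regulators were lower with LPS, in a fit with fewer samples that called 2832 of 12940 genes in place of 4221 of 12296. Without gene length, the share of Rab3d differed by -13.3 percentage points instead of -16.1 and that of Rab2a by 0.61 instead of 0.317, since lengths then weigh in the shares.

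Deviations of same-numbered libraries were only weakly correlated (0.135, 0.0504 and 0.0118), against -0.115 to 0.0698 between libraries of unlike number. Whether the replicate numbers pair the libraries is not settled by these values. With the replicate block, 19 members had a call, 10 higher and 9 lower with LPS, 16 of them shared with the fit without the block, and Rab5c, Rab11b and Rab24 gained. In that fit 4474 of 12296 genes had a call. The scalings of RLE and DESeq2 shifted the median log2FC of all genes by -0.00653 and -0.00714. The filter left 45 members to test, against 51 in DESeq2 and 61 with no filter.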
